A study of Mus musculus with 6 samples.

Results

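The genes described here are 10 core genes of the Notch pathway in mammary epithelial cells (MECs), namely the receptors Notch1, Notch2, Notch3 and Notch4, the ligands Jag1, Jag2 and Dll1, and the target genes Hes1, Hey1 and Heyl. They were taken by gene symbol from the deposited count table, and each of the 10 symbols matched 1 of the 55487 genes listed. Female BALB/c mice, 3 wild-type and 3 IL-21isoTg, gave 1 poly(A) RNA library each at the age of 10 weeks. IL-21isoTg mice carry a transgene for a membrane-bound isoform of the cytokine IL-21 that is expressed in T cells, and its promoter is not given in the sources used here. All mice were virgin with oestrous stages randomised, and the MECs were the mammary cells left after magnetic depletion of CD45+, CD31+ and CD140a+ cells. The comparison asked how such cells differ between the genotypes at an age before tumours. Mice of a genotype are separate animals, so the spread between them is biological as well as technical.

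Notch receptors are single-pass membrane proteins that are activated by ligands of the Jagged and Delta-like families on a neighbouring cell. Ligand binding exposes the receptor to the protease ADAM10 and then to γ-secretase, and the released intracellular domain joins the DNA-binding protein RBPJ and a Mastermind coactivator to switch on target genes, above all those of the HES and HEY repressors. In the mammary gland this pathway is known for its part in the choice between luminal and basal fates, and Notch4 and Dll4 are also well known from blood vessels.

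The total count on genes was between 15902886 and 25719244 per mouse, and a count of 3, used as the floor, corresponded to 0.112 to 0.280 CPM, the count scaled to the TMM-adjusted library size. Floors cover counting error only. The luminal keratin Krt8 was at 1630 to 3009 CPM and the basal keratin Krt14 at 223 to 532 CPM in the 6 libraries, while the depleted markers Ptprc (CD45), Pecam1 (CD31) and Pdgfra (CD140a) were at 2.16 to 9.40, 20.6 to 86.2 and 15.8 to 60.4 CPM. Genes of salivary glands were also present, and a list of 15 such genes took 6.31% to 21.6% of the counts in wild-type libraries and 4.68% to 38.2% in IL-21isoTg libraries, with the highest share in IL-21isoTg mouse 3. Wild-type mouse 3 had 37 counts of Il21 against 0 in the other wild-type mice and 131 to 795 in IL-21isoTg mice. Some results are also given without single libraries.

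All 10 genes were detected in every library and passed the filter on low counts. In the comparison of the genotypes, 0 of the 10 had an adjusted p under 0.05 in edgeR's quasi-likelihood test, where 0% of the 17165 genes tested did. At an unadjusted p under 0.05 there were 0 of 10, against 5.82% of all genes tested (3.19% higher and 2.63% lower in IL-21isoTg MECs). DESeq2's Wald test called 0 of the 10 and 0.472% of all genes, and limma-voom called 0 of the 10 and 0% of all genes. For each of the 10 genes the CPM values of the genotypes overlapped, whereas the genotypes did not overlap in 12.1% of all genes tested (5.54% higher and 6.54% lower in IL-21isoTg MECs). The log2 fold change (IL-21isoTg minus wild-type) was above 0 in 5 genes and below 0 in 5, where 52.1% of all genes were below 0, with a median of 0.014 beside -0.019 over all genes tested. These values do not show that the genes were alike in both genotypes, since with 3 mice per genotype the 95% intervals were often wide. They covered 0.725-fold to 1.29-fold for Notch2 but 0.274-fold to 2.69-fold for Hey1.

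**Figure D1:**
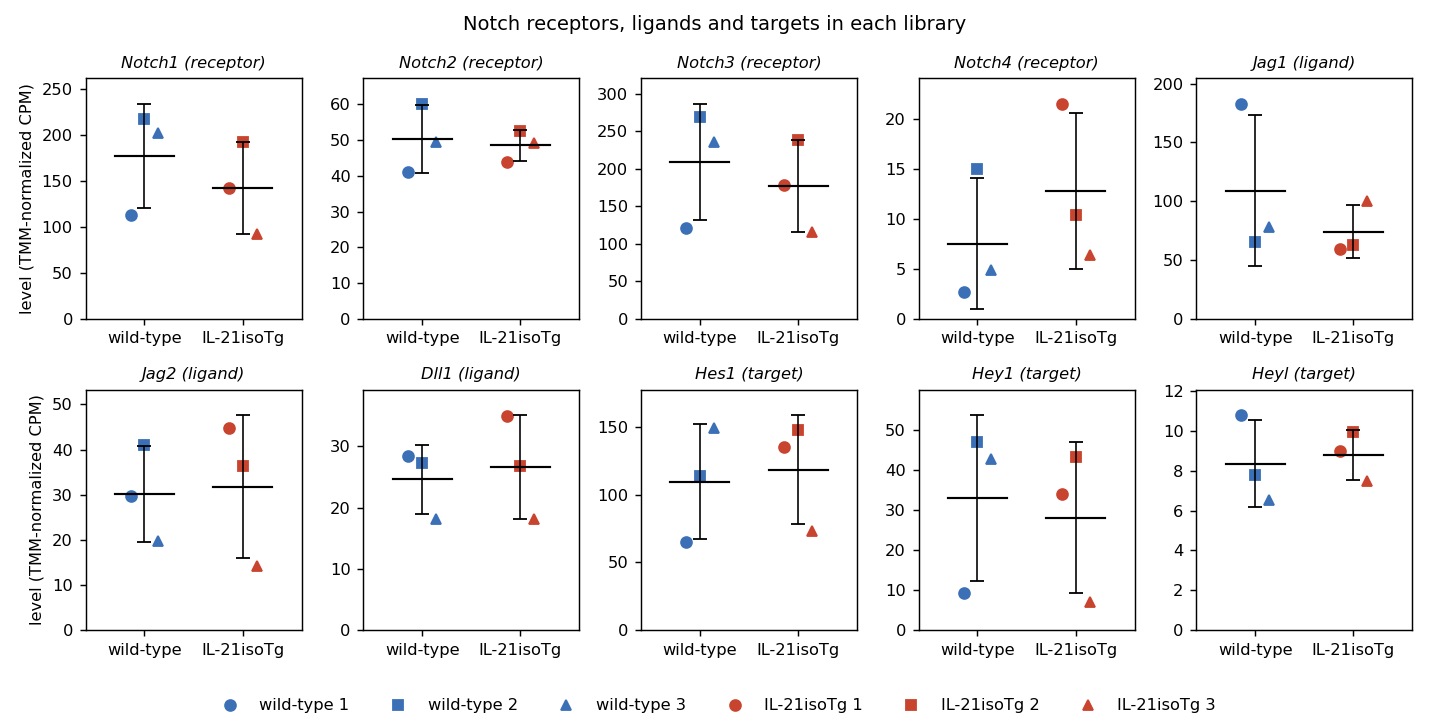
Level of each of the 10 Notch genes (TMM-normalized CPM, linear axis from 0) in the 3 wild-type (blue) and 3 IL-21isoTg (red) libraries, with black lines for the mean and the SD of 3 mice. In every panel the values of the genotypes overlap, and for Notch1, Notch3, Hes1 and Hey1 wild-type mouse 1 and IL-21isoTg mouse 3 are the lowest of their groups.

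Among the receptors, Notch3 was counted most. The gene (GRCm38, chr17:32120820-32166852, minus strand) has up to 33 exons in a transcript. Notch3 levels were 122, 269 and 237 CPM for wild-type mice 1 to 3 and 178, 238 and 115 for IL-21isoTg mice 1 to 3. Wild-type mouse 1 and IL-21isoTg mouse 3 were low and close to each other, and the genotypes overlapped. The means were 209 ± 77.4 CPM (SD, n = 3) and 177 ± 61.4 CPM (SD, n = 3), with a log2 fold change of -0.24 (SE, the standard error, 0.35, edgeR adjusted p = 0.918). Without IL-21isoTg mouse 3 the log2 fold change was -0.0015, without wild-type mouse 2 it was -0.013, and without wild-type mouse 1 it was -0.50.

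Notch1 (chr2:26457903-26516663, minus strand) encodes the receptor best known from T cell development. Its levels were 112, 217 and 202 CPM for wild-type mice 1 to 3 and 142, 192 and 92.1 for IL-21isoTg mice 1 to 3. Again wild-type mouse 1 and IL-21isoTg mouse 3 were low. The means were 177 ± 56.4 CPM (SD, n = 3) and 142 ± 50.1 CPM (SD, n = 3), and the log2 fold change of -0.31 had a 95% interval from -1.07 to 0.44 (SE 0.33, edgeR adjusted p = 0.874). Without wild-type mouse 1 all 3 IL-21isoTg mice lay below the other wild-type mice, with a log2 fold change of -0.55 (edgeR adjusted p = 0.732). It was -0.59 without IL-21isoTg mouse 2 and -0.077 without IL-21isoTg mouse 3.

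Notch2 (chr3:98013527-98150361, plus strand) varied least of the 10 genes. Its levels were 41.0, 60.1 and 49.5 CPM for wild-type mice 1 to 3 and 43.9, 52.7 and 49.1 for IL-21isoTg mice 1 to 3, so the highest library was 1.46 times the lowest. The log2 fold change was -0.049 (SE 0.18, edgeR adjusted p = 0.969), and its 95% interval from -0.46 to 0.37 was the narrowest of the 10. Its direction turned when wild-type mouse 2 was left out (0.10) or IL-21isoTg mouse 1 (0.021).

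Notch4 (chr17:34564268-34588503, plus strand), the receptor known from endothelium, rested on far fewer reads. Wild-type mice 1 to 3 had 60, 312 and 109 reads and IL-21isoTg mice 1 to 3 had 518, 281 and 69. In CPM these were 2.71, 14.99 and 4.90 against 21.5, 10.5 and 6.43. Wild-type mouse 2 lay above IL-21isoTg mice 2 and 3, so the genotypes overlapped although their means were 7.53 ± 6.55 and 12.8 ± 7.82 CPM (SD, n = 3 each). The log2 fold change of 0.78 had a 95% interval from -0.74 to 2.29 (SE 0.66, edgeR adjusted p = 0.845). Without wild-type mouse 2 the genotypes did not overlap and it was 1.76 (unadjusted p = 0.0155, adjusted p = 0.749 in edgeR), and without IL-21isoTg mouse 1 it was 0.18. It was 0.39 without wild-type mouse 1, 0.54 without wild-type mouse 3 and 1.098 without IL-21isoTg mouse 3.

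The sequences before the start sites of Notch1, Notch3 and Notch4 are shown because Notch1 and Notch3 kept nearly the same proportion in every library while Notch4 followed another order. They come from RefSeq on GRCm38.p6, cover up to 250 bases upstream of the annotated start, stop before the first base of an exon of the same gene in GENCODE M21, and are written 5′ to 3′ on the gene's own strand. Capitals mark matches to CACNAG on either strand, the N-box to which HES repressors are known to bind.
Notch1, chr2:26503825-26504072, minus strand: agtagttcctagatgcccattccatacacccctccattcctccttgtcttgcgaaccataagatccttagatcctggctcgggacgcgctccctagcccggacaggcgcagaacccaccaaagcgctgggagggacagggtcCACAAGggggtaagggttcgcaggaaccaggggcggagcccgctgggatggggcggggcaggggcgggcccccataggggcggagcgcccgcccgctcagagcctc
Notch3, chr17:32166891-32167140, minus strand: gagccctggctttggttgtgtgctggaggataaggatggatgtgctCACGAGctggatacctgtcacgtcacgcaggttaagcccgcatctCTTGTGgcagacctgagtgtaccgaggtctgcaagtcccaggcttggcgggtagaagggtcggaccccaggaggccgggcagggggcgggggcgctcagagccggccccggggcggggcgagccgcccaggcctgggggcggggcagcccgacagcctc
Notch4, chr17:34564045-34564267, plus strand: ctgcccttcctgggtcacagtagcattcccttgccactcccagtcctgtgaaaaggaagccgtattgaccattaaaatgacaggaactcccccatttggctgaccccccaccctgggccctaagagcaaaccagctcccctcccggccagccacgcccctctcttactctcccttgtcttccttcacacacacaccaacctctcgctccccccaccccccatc
The Notch1 window lies upstream of the RefSeq start but inside the gene as GENCODE draws it, since longer transcripts begin farther upstream. CACNAG was found 1 time for Notch1, 2 times for Notch3 and 0 times for Notch4, and 36.7% of 32851 RefSeq windows of 250 bases held it. The window of Notch2, not printed here, also held it 1 time, although Notch2 did not share the profile of Notch1 and Notch3. Whether the motif bears on the levels was not tested. TGGGAA, the core letters of RBPJ sites, and the longer GTGGGAA that contains it were absent from the 3 printed windows on both strands. Of all windows 21.6% and 5.42% held them. Of the 10 genes 7 had an entry in this table. Hes1, Hey1 and Heyl had none.

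Among the ligands, Jag1 (Jagged 1) was the most abundant. The gene is at chr2:137081456-137116644 on the minus strand. Its levels were 182, 65.7 and 78.1 CPM for wild-type mice 1 to 3 and 59.7, 62.4 and 100.2 for IL-21isoTg mice 1 to 3. Wild-type mouse 1 stood far above the others, and IL-21isoTg mouse 3 was the next highest, the reverse of their place in Notch1 and Notch3. The means were 109 ± 64.2 and 74.1 ± 22.6 CPM (SD, n = 3 each), and the log2 fold change was -0.56 (SE 0.40, edgeR adjusted p = 0.829), the lowest of the 10. That value rested on wild-type mouse 1, without which it was 0.056. Without IL-21isoTg mouse 3 it was -0.83, and the 2 IL-21isoTg mice left lay below all 3 wild-type mice.

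Jag2 (Jagged 2, chr12:112907819-112929776, minus strand) was at 29.6, 40.9 and 19.8 CPM for wild-type mice 1 to 3 and 44.9, 36.3 and 14.3 for IL-21isoTg mice 1 to 3. The third mouse of each genotype was lowest. The log2 fold change was 0.085 (SE 0.42, edgeR adjusted p = 0.977) and ranged from -0.24 to 0.44 when single mice were left out. Dll1 (Delta-like 1, chr17:15367354-15376872, minus strand) was at 28.4, 27.2 and 18.1 CPM for wild-type mice 1 to 3 and 35.0, 26.8 and 18.1 for IL-21isoTg mice 1 to 3. The third mice of both genotypes were again lowest, at nearly the same level. Its log2 fold change was 0.12 (SE 0.28, edgeR adjusted p = 0.951), with a range from -0.13 to 0.34 when single mice were left out. Both ligands lay lower without IL-21isoTg mouse 1 and higher without IL-21isoTg mouse 3.

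Hes1 (chr16:30064384-30067796, plus strand) encodes a basic helix-loop-helix repressor and is the best known Notch target. Its levels were 64.9, 114 and 149.8 CPM for wild-type mice 1 to 3 and 135, 148 and 73.0 for IL-21isoTg mice 1 to 3. Wild-type mouse 1 and IL-21isoTg mouse 3 were the lowest, as for Notch1 and Notch3. The means were 109.7 ± 42.6 and 119 ± 40.1 CPM (SD, n = 3 each), with a log2 fold change of 0.12 (SE 0.35, edgeR adjusted p = 0.962). It was -0.14 without wild-type mouse 1, -0.073 without IL-21isoTg mouse 2 and 0.41 without wild-type mouse 3.

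Hey1 (chr3:8663359-8667256, minus strand), which encodes a related repressor of the HEY family, differed most between mice among the targets. Its levels were 9.11, 46.8 and 42.7 CPM for wild-type mice 1 to 3 and 34.0, 43.2 and 6.90 for IL-21isoTg mice 1 to 3. It was thus low in wild-type mouse 1 and IL-21isoTg mouse 3 and between 34.0 and 46.8 CPM in the other 4, with a highest library at 6.78 times the lowest. The log2 fold change was -0.22, its 95% interval ran from -1.87 to 1.43 (SE 0.71, edgeR adjusted p = 0.964), and it was -0.66 without wild-type mouse 1, -0.67 without IL-21isoTg mouse 2, 0.13 without wild-type mouse 2 and 0.24 without IL-21isoTg mouse 3. Without wild-type mouse 3 it was 0.013. The SE was as large as or larger than that of 91.2% of all genes tested.

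Heyl (chr4:123233556-123249875, plus strand) encodes another repressor of that family. Its levels were 10.8, 7.78 and 6.52 CPM for wild-type mice 1 to 3 and 8.98, 9.94 and 7.46 for IL-21isoTg mice 1 to 3, without the low values of Hey1 in wild-type mouse 1 and IL-21isoTg mouse 3. The means were 8.36 ± 2.19 and 8.79 ± 1.25 CPM (SD, n = 3 each), with a log2 fold change of 0.076 (SE 0.26, edgeR adjusted p = 0.967). It ranged from -0.075 to 0.31 when single mice were left out, and was below 0 without wild-type mouse 3 or IL-21isoTg mouse 2.

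To compare the genes with each other, each CPM value was divided by the length of all annotated exons of the gene, which gives a level in CPM per kb. This length joins the exons of every annotated transcript, 14232 bp over 11 transcripts for Notch1 and 8089 bp over 3 for Notch3. Ranks and shares per kb therefore depend on the annotation as well as on the counts. Hes1 was highest at 56.1 ± 18.3 CPM per kb (SD, n = 6 libraries), and Notch3 followed at 23.9 ± 8.02. The log2 difference between these neighbours was 1.23 ± 0.28 (SD over 6 libraries), and Hes1 was higher in 6 of 6 libraries. Jag1 at 15.7 ± 8.07, Notch1 at 11.2 ± 3.61, Hey1 at 9.33 ± 5.48, Dll1 at 6.07 ± 1.54, Notch2 at 4.58 ± 0.622 and Jag2 at 4.44 ± 1.73 CPM per kb came next. No neighbours from Notch3 down to Jag2 differed by more than the SD of their log2 difference. Jag2 and Heyl did, by 1.32 ± 0.55, with Jag2 higher in 6 of 6 libraries. Heyl at 1.68 ± 0.315 and Notch4 at 1.26 ± 0.877 CPM per kb were last and did not differ beyond that spread.

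**Figure D2:**
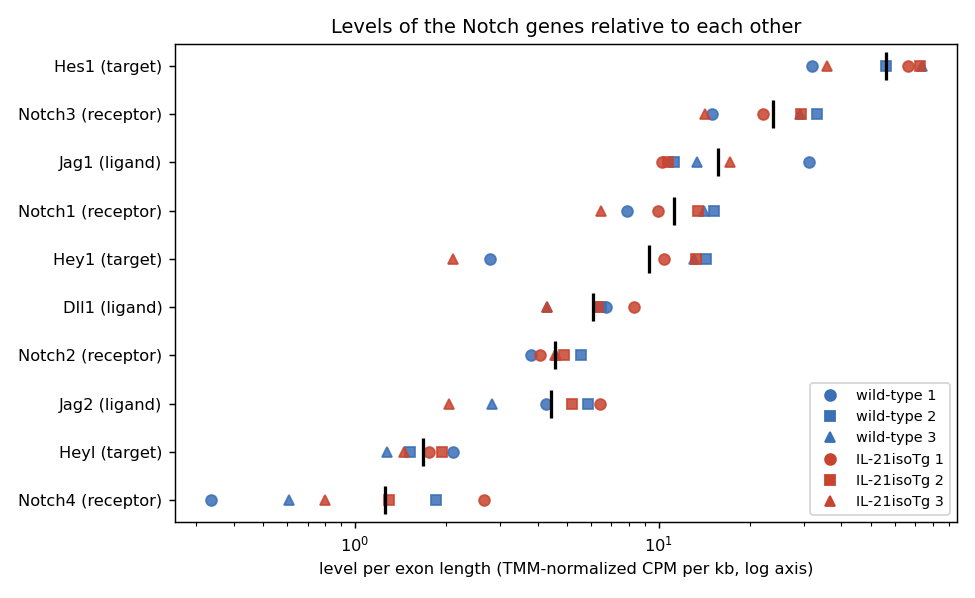
Level of the 10 Notch genes per exon length (TMM-normalized CPM per kb, log axis) in the 6 libraries, with wild-type in blue, IL-21isoTg in red and a black bar for the mean of all 6. Hes1 is highest and Notch4 lowest by mean, and the widest scatter is that of Notch4 and Hey1.

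Of the summed receptor level per kb, Notch3 made up 54.7% to 60.2% and Notch1 24.8% to 29.2% in the 6 libraries. Notch2 contributed 9.45% to 17.5% and Notch4 1.2% to 6.89%. The order Notch3, Notch1, Notch2, Notch4 therefore held in every library of both genotypes. The ratio of Notch1 to Notch3 counts was 0.925, 0.806 and 0.852 for wild-type mice 1 to 3 and 0.796, 0.808 and 0.799 for IL-21isoTg mice 1 to 3, while the highest CPM was 2.35 times the lowest for Notch1 and 2.33 times for Notch3. Of the ligands, Jag1 took 41.0% to 74.0% of the summed level per kb, with the highest shares in wild-type mouse 1 (74.0%) and IL-21isoTg mouse 3 (73.1%). Of the targets, Hes1 took 78.0% to 90.9%, and Hey1 took 7.59% in wild-type mouse 1 and 5.36% in IL-21isoTg mouse 3 against 13.2% to 19.9% in the other 4 libraries.

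**Figure D3:**
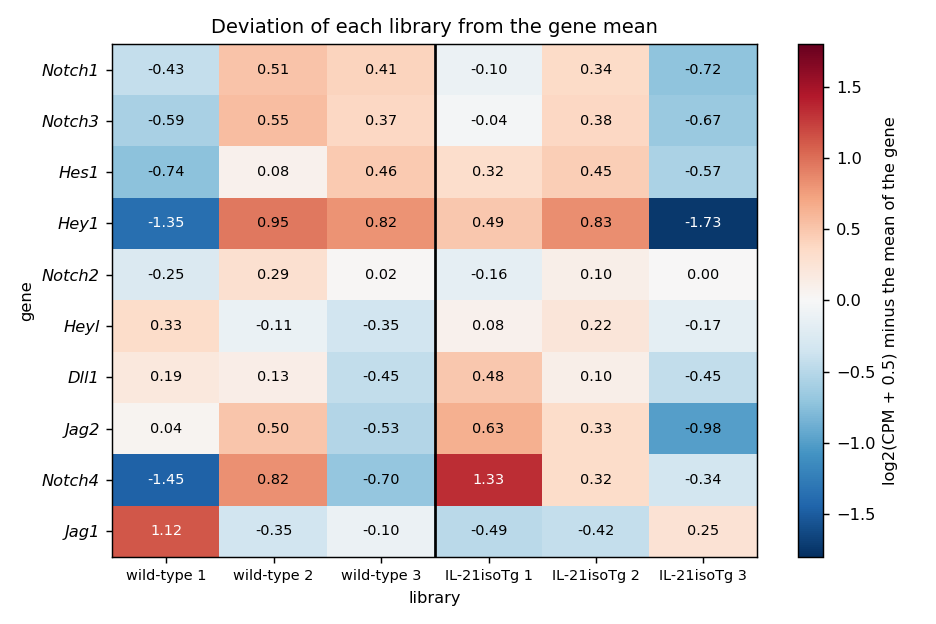
Deviation of each library from the mean of the gene, on the scale of log2(CPM + 0.5), for the 10 Notch genes (rows) and 6 libraries (columns), with the genotypes separated by a black line. Notch1, Notch3, Hes1 and Hey1 are below their means in wild-type mouse 1 and IL-21isoTg mouse 3, where Jag1 is above its mean.

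The 2 libraries low in Notch1, Notch3, Hes1 and Hey1 belong to different genotypes. In the same order of mice (wild-type 1 to 3, then IL-21isoTg 1 to 3), the 10 genes together had 603, 863, 808, 704, 820.1 and 483 CPM, and salivary gland genes took 21.6%, 6.31%, 14.7%, 21.0%, 4.68% and 38.2% of the counts. The 6 luminal progenitor markers summed to 625, 2174, 1276, 2076, 3378 and 1269 CPM. Of these sums Ltf alone made up 143, 1540, 594, 1266, 2343 and 767 CPM. Kit and Cd14 were lowest in wild-type mouse 1 and IL-21isoTg mouse 3. For Ltf, Elf5 and Itgb3 the lowest library was wild-type mouse 1, but IL-21isoTg mouse 3 was not next. Aldh1a3 went the other way in wild-type mouse 1, at 150.5, 50.8, 78.0, 39.0, 172 and 113 CPM. The 8 general luminal markers summed to 8322, 6370, 7598, 5824, 10057 and 7995 CPM, with wild-type mouse 1 and IL-21isoTg mouse 3 among the 3 highest. The 8 hormone-sensing luminal markers summed to 890, 1589, 1765, 813, 1539 and 822 CPM, lowest in IL-21isoTg mouse 1 and next in IL-21isoTg mouse 3 and wild-type mouse 1. The part of these differences in the Notch gene levels was not tested, and in bulk RNA fewer cells of a type cannot be told apart from less RNA per cell. With the salivary gland level as a covariate, 0 of the 10 genes had an adjusted p under 0.05 in edgeR's test, and the log2 fold change went from -0.24 to -0.062 for Notch3, from -0.31 to -0.17 for Notch1 and from -0.22 to 0.088 for Hey1. It was farther from 0 for Notch4 (1.27 in place of 0.78), Jag1 (-0.65 in place of -0.56), Hes1 (0.23 in place of 0.12) and Jag2 (0.22 in place of 0.085). Smaller moves away from 0 were those of Dll1 (0.16 in place of 0.12) and Heyl (0.087 in place of 0.076), and Notch2 went from -0.049 to 0.011.

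Notch4 is set here beside the markers of endothelium, of which Pecam1 (CD31) was detected in every library although CD31+ cells had been depleted. The 10 endothelial markers, all of which passed the filter, summed to 137, 308 and 133 CPM for wild-type mice 1 to 3 and 436, 372 and 176 for IL-21isoTg mice 1 to 3. Their sums overlapped between the genotypes (exact permutation test, two-sided, p = 0.2, where 0.1 is the smallest possible with 3 mice against 3), and 10 of 10 markers had a log2 fold change above 0, with a median of 0.81, 3 at an unadjusted p under 0.05 and 0 at an adjusted p under 0.05 in edgeR. Over all genes tested 52.1% were below 0 and 5.82% had an unadjusted p under 0.05. Of the 7 fibroblast markers 6 were also above 0 and 3 had an unadjusted p under 0.05, and their sums of 1965, 3507 and 3167 CPM and of 5054, 4374 and 4403 CPM, in the same order of mice, did not overlap. Taken as a percentage of the endothelial sum, Notch4 was 1.98%, 4.87% and 3.69% for wild-type mice 1 to 3 and 4.94%, 2.81% and 3.66% for IL-21isoTg mice 1 to 3. The means were 3.51% ± 1.45 and 3.81% ± 1.07 (SD, n = 3 each), and the genotypes overlapped. The ratio only describes the libraries, and the part of the endothelial cells in the Notch4 level was not tested. The 7 pericyte markers summed to 79.2, 191 and 119.8 CPM and to 206, 169 and 111 CPM in the same order, and overlapped as well. As a percentage of the pericyte sum, Notch4 had means of 5.11% ± 2.38 and 7.48% ± 2.58 (SD, n = 3 each), and the genotypes overlapped. The 9 basal or myoepithelial markers summed to 1984, 2225 and 1843 CPM and to 3479, 3080 and 2074 CPM. Wild-type mouse 2 and IL-21isoTg mice 1 and 2 were thus highest in the endothelial, pericyte and basal sums alike. They were also highest in the adipocyte and luminal progenitor sums.

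**Figure D4:**
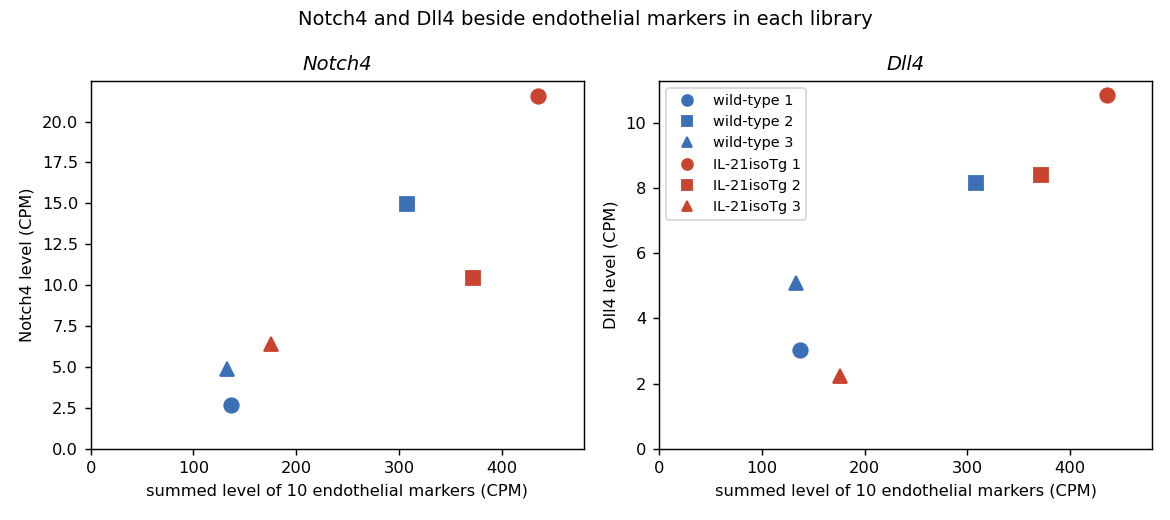
Level of Notch4 (left) and of the endothelial ligand gene Dll4 (right) in CPM against the summed CPM of 10 endothelial markers in the 6 libraries, wild-type in blue and IL-21isoTg in red. The 3 libraries with 308 CPM or more of endothelial markers also have the 3 highest values of Notch4 and of Dll4. The same 3 libraries also have the highest sums of basal, pericyte, adipocyte and luminal progenitor markers (not drawn). Among the remaining libraries Dll4 does not follow the endothelial sum, since IL-21isoTg mouse 3 has the highest sum (176 CPM) and the lowest Dll4 (2.24 CPM).

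Of 54 other genes of the pathway, listed by their step, 50 passed the filter, and Dll3, Hes2, Hes3 and Hes5 did not. By an adjusted p under 0.05, edgeR's quasi-likelihood test, DESeq2 and limma-voom each called 0 of the 50, and their median log2 fold change was -0.042, with 21 above 0 and 29 below. At an unadjusted p under 0.05 edgeR gave 1 of the 50, against 5.82% of all genes tested, a share that does not set the list apart. That gene was Hdac1, which encodes a histone deacetylase found in corepressor complexes. Its levels were 48.7, 48.3 and 46.6 CPM for wild-type mice 1 to 3 and 32.3, 43.2 and 28.4 for IL-21isoTg mice 1 to 3, with a log2 fold change of -0.46 (SE 0.18, unadjusted p = 0.0358, adjusted p = 0.809 in edgeR). Without wild-type mouse 2, wild-type mouse 3 or IL-21isoTg mouse 1, 0 of the 50 genes had an unadjusted p under 0.05 in edgeR. Leaving out any other single mouse gave 1 to 2 of the 50. The genotypes did not overlap in 4 of the 50 genes, where 12.1% of all genes did not. These 4, named after their values were seen, were Hdac1, Itch and Snw1, lower in IL-21isoTg MECs, and Numbl, higher. Itch, a ubiquitin ligase that acts on Notch, was at 58.8 ± 2.88 and 53.9 ± 1.42 CPM, and Snw1, a nuclear cofactor, at 66.7 ± 0.595 and 59.9 ± 5.59 CPM (SD, n = 3 each). Numbl, a relative of the Notch inhibitor Numb, was at 10.8 ± 1.32 and 14.6 ± 1.62 CPM with a log2 fold change of 0.43 (edgeR adjusted p = 0.809). By step, the log2 fold change was below 0 in 7 of 9 genes of the nuclear complex, 5 of 7 corepressors, 5 of 9 cleavage proteases, 5 of 10 genes of turnover or inhibition, 3 of 4 of ligand endocytosis, 2 of 5 glycosyltransferases, 1 of 3 other ligands and 1 of 3 other Hes or Hey genes, where 52.1% of all genes were below 0.

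Genes of several steps were described whatever their values. The ligand gene Dll4 was at 3.02, 8.17 and 5.08 CPM for wild-type mice 1 to 3 and 10.9, 8.41 and 2.24 for IL-21isoTg mice 1 to 3, with a log2 fold change of 0.42 (SE 0.57, edgeR adjusted p = 0.909). As a percentage of the endothelial sum, Dll4 had means of 2.90% ± 0.837 and 2.01% ± 0.648 (SD, n = 3 each), and the genotypes overlapped. Lfng, a fringe glycosyltransferase that alters the ligand preference of Notch receptors, had 4.06 ± 1.37 and 4.73 ± 2.22 CPM (SD, n = 3 each) and a log2 fold change of 0.24 (edgeR adjusted p = 0.937). Adam10, which encodes the first cutting protease, was at 207 ± 50.3 and 165 ± 44.6 CPM (SD, n = 3 each), a log2 fold change of -0.33 (edgeR adjusted p = 0.840). Rbpj, which encodes the DNA-binding protein of the pathway, had a log2 fold change of 0.053 with a 95% interval from -0.37 to 0.47. Nrarp, a target gene whose product limits Notch signalling, was at 9.70, 10.95 and 10.93 CPM for wild-type mice 1 to 3 and 8.90, 9.83 and 4.76 for IL-21isoTg mice 1 to 3, with a log2 fold change of -0.42 (edgeR adjusted p = 0.827). IL-21isoTg mouse 3 alone was far below the rest.

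**Figure D5:**
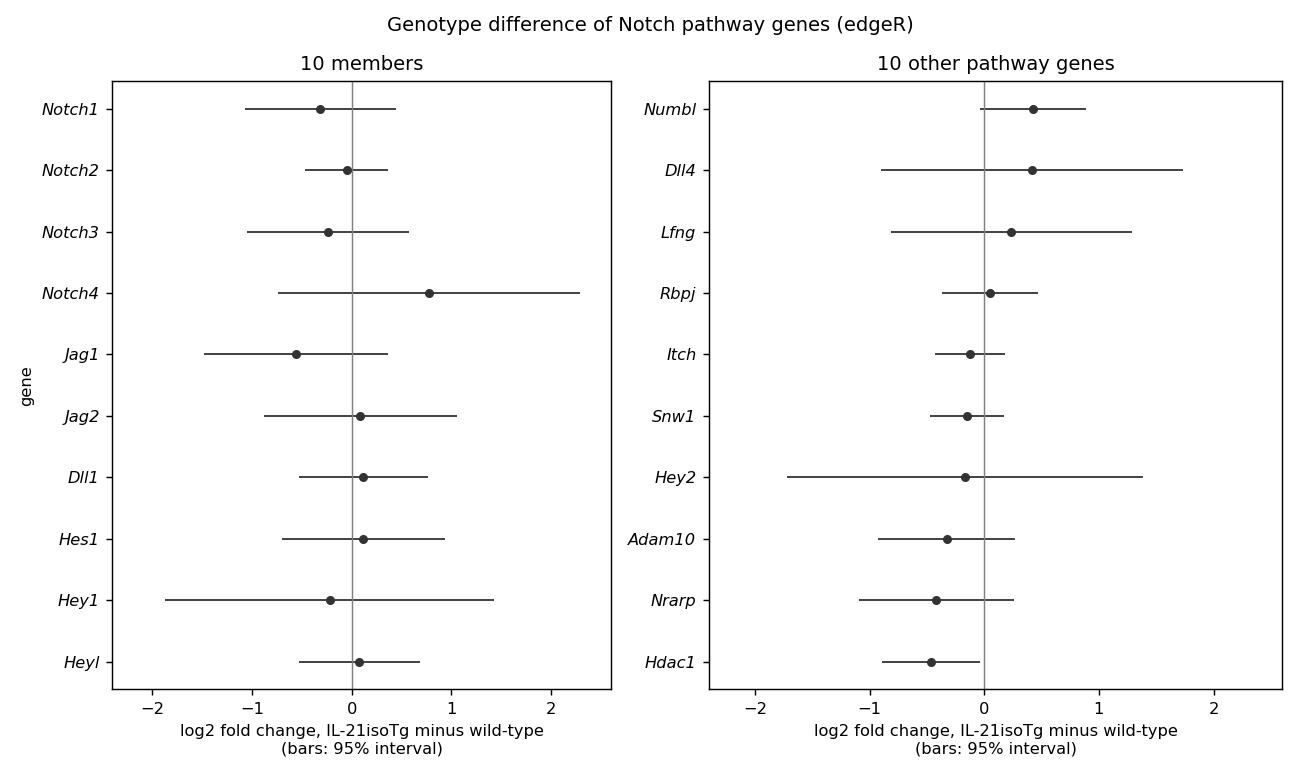
Log2 fold change (IL-21isoTg minus wild-type) with its 95% interval from edgeR's quasi-likelihood fit for the 10 Notch genes (left) and the 10 other pathway genes that are named with values (right). Every interval on the left includes 0, and on the right that of Hdac1 lies below 0.

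Transcripts on the opposite strand share exon sequence with 3 of the 10 genes. 0610009E02Rik and Gm13568 share 1068 and 414 bp with Notch1 exons, Gm17276 shares 488 bp with Notch3 exons, and A930024N18Rik shares 867 bp, or 20.5%, with Dll1 exons. The kit keeps the strand, but whether the counting used it is not given in the sources used here. Counts from the shared exons of Notch1 and Notch3 could therefore have been affected. A930024N18Rik is not among the genes counted, so its reads could only have added to Dll1. On the same strand, Gm42820 shares 541 bp, or 5.02%, with Notch2 exons, and had 0 to 13 counts per library. The counts of 0610009E02Rik were 140 to 718 and those of Gm17276 145 to 604 per library.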

How the data were processed

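Poly(A) RNA-seq libraries of MECs were analysed, 3 of wild-type and 3 of IL-21isoTg mice, grouped by the genotype in their labels. MECs were the cells left after magnetic removal of cells with CD45, CD31 or CD140a. The authors deposited raw read counts per gene and library. The submitters' processing notes name FastQC 0.11.7, Trimmomatic 0.38, HISAT2 2.1.0, SAMtools 1.9, featureCounts 1.6.3 and DESeq2 1.24.0, with the build mm10. The strand setting and annotation release are not given in the sources used here. Their normalized counts and their own comparison of the genotypes (fold changes and p-values) were not used.

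Low genes were removed by filterByExpr of edgeR (at least 10 reads, in total at least 15), and the rest were scaled with TMM and compared with edgeR's quasi-likelihood test (edgeR 4.0.16, R 4.3.3, robust dispersions, genotype as the only term) over 17165 genes with Benjamini-Hochberg adjustment and a threshold of 0.05. The standard error is the log2 fold change divided by the root of F. DESeq2 1.42.0 and limma 3.58.1 served as alternatives. The test was checked on simulated counts. Total counts of 15902886 to 25719244 per library set the precision. Positions and exon lengths came from GENCODE M21 (GRCm38), promoter windows from RefSeq (GRCm38.p6), and motifs were searched with Python 3.11.15.

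All 10 members were named. Of the other pathway list, genes with an unadjusted p under 0.05 were named, with Dll4, Lfng, Adam10, Rbpj and Nrarp whatever their values. A further gene of this set, named whatever its value, is not reported here. For each member the 2 genes with the nearest profile were also taken. The members and lists were chosen with earlier results of these data known. The salivary gland list was written because genes of that tissue were known from such results to be high here, and 13 of its 15 genes passed the filter. No library was left out of the main comparison, and no pair of replicates was alike within sampling noise.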

Additional observations from a re-analysis of the deposited data

How the results depend on the processing

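No alternative gave any of the 10 genes an adjusted p under 0.05. The number of genes called among all tested went from 0 to 14 with no filter on low counts, to 81 with DESeq2's Wald test and to 1 with the salivary gland level as a covariate, and was 0 to 6 when single libraries were left out, with 6 without wild-type mouse 3. Members at an unadjusted p under 0.05 in edgeR numbered 0 to 1 in these leave-one-out fits (Notch4 without wild-type mouse 2). Of all genes tested 3.04% to 8.88% were under 0.05 in the same fits, with 6.58% without wild-type mouse 2. Members whose genotypes did not overlap also numbered 0 to 1 (Notch1, Notch4 or Jag1). The share of all genes without overlap was not computed for these fits. With a mouse left out, separation is reached more easily, so these counts do not set the members apart. The cause of the shifts was not tested. The sign of the log2 fold change turned for Jag2 with the replicate number as a block (-0.011) and for Notch2 (0.011) and Hey1 (0.088) with the salivary gland covariate. Over the leave-one-out fits it ranged from -0.16 to 0.10 for Notch2, from -0.83 to 0.056 for Jag1, from -0.24 to 0.44 for Jag2, from -0.13 to 0.34 for Dll1, from -0.14 to 0.41 for Hes1, from -0.67 to 0.24 for Hey1 and from -0.075 to 0.31 for Heyl. Notch1, Notch3 and Notch4 kept their sign in all 15 alternatives, although Notch3 came as close to 0 as -0.0015 without IL-21isoTg mouse 3.

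The replicate numbers are shared by the genotypes only as labels. Deviations of same-numbered mice from their group means correlated at -0.26, 0.096 and -0.056 across 17165 genes, and with the replicate block 0 genes were called. Wild-type mouse 1 correlated best with IL-21isoTg mouse 3 (0.26) and wild-type mouse 2 with IL-21isoTg mouse 1 (0.26). With 3 mice per genotype the 95% intervals reached up to 4.89-fold for Notch4 and 2.69-fold for Hey1.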

Other observations

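The profile of each of the 10 genes over the 6 libraries was compared with 15240 genes outside all lists that had a mean of at least 1 CPM, by the root mean square distance of centred log2(CPM + 0.5). The values describe 6 libraries that differ in depth and make-up, and say nothing of shared function. The nearest genes to Notch1 were Zmat3 at a distance of 0.076 and Gm2670 at 0.096, where the median gene was at 0.52. Notch3 was nearest to Ntn1 (0.057), which encodes the guidance protein netrin 1, and to Esyt3 (0.066). Notch2 was nearest to Tgfbr2 (0.052), a receptor of TGF-β, and Ccser2 (0.056). Jag1, with its high value in wild-type mouse 1, was nearest to the receptor genes Gfra1 (0.049) and Cd44 (0.075), where the median gene was at 0.62.

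Hes1 was nearest to Gm37539 (0.084) and to Klf4 (0.090), a zinc finger transcription factor. Hey1 and Notch4, the most variable of the 10, had larger distances, with Snorc at 0.22 and Inmt at 0.29 for Hey1 and BC028528 and Tsc22d3 at 0.19 each for Notch4. The median gene was also farther, at 1.13 from Hey1 and 0.98 from Notch4. The distance is not scaled to the spread of a gene, so it tends to be larger for variable genes. For Jag2 the nearest genes were Eif5a2 (0.16) and Pltp (0.17), for Dll1 Gm3788 (0.067) and Zkscan14 (0.087), and for Heyl Rps27rt (0.040) and Ube2a (0.047). Hey2, the remaining HEY gene, was at 0.68, 3.65 and 4.59 CPM for wild-type mice 1 to 3 and 3.16, 3.35 and 1.31 for IL-21isoTg mice 1 to 3, lowest in wild-type mouse 1 and IL-21isoTg mouse 3 as Hey1 was. It is named after its values were seen.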
